A study of Homo sapiens with 12 samples.

Results

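The genes described are the receptors of the epidermal growth factor receptor family (EGFR, ERBB2, ERBB3 and ERBB4), the ligands AREG, EREG, HBEGF and TGFA, the receptor inhibitor ERRFI1 and the hepatocyte growth factor receptor MET. They were found on the arrays by gene name among the probes that are not controls, which gave 18 probes of 10 genes among 36337 gene names. RNA came from 3 established human cell lines of lung adenocarcinoma: A549, PC14 and the cisplatin-resistant derivative of PC14, named PC14CDDP. Each line was transfected once at 25 nM with pre-miR-197 (a precursor of the microRNA miR-197), with its control NC (AllStar-NC in the labels), with LNA-miR-197 (a locked nucleic acid oligonucleotide against miR-197) or with its control LNA-NC. All 12 cultures therefore carried a transfected oligonucleotide and the reagent, and no untransfected culture was included. One array was hybridised per culture with 100 ng of total RNA, so that the 3 lines stood as replicates of a transfection and the 4 arrays of a line were cultures of 1 line under different transfections. P-values between lines thus measure the spread between cultures of these lines only.

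EGFR, ERBB2, ERBB3 and ERBB4 are transmembrane receptors that pair with each other when a ligand binds, and the pairs signal through the RAS-ERK and PI3K-AKT cascades. AREG, EREG, HBEGF and TGFA are made as membrane-anchored precursors, which proteases of the ADAM family release. In lung adenocarcinoma EGFR and MET are known as drivers of growth and drug targets, and extra MET signalling is a known route around EGFR inhibitors.

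The transfected microRNA has 2 mature arms, and the labels do not say which arm pre-miR-197 or LNA-miR-197 stands for. Both are shown, as RefSeq gives them (GRCh38.p14, chromosome 1), because every transfection comparison turns on this molecule. Capitals mark the seed, bases 2 to 8.

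hsa-miR-197-3p: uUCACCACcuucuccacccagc

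hsa-miR-197-5p: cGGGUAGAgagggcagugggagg

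Each member was read by 1 to 3 probes of 60 bases, placed on hg19 by the array files. Probes that lie in coding sequence are printed for some of the genes where single probes matter below, namely for EGFR and ERBB3, whose probes differ, and for the ligands AREG and TGFA. Their positions are chr7:55231446-55231505, plus strand, for EGFR; chr12:56482380-56482439, plus strand, for ERBB3; chr4:75318293-75318352, plus strand, for AREG; and chr2:70683472-70683531, minus strand, for TGFA. Each sequence is written 5′ to 3′ along the transcript and no base is marked.

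EGFR A_33_P3351955: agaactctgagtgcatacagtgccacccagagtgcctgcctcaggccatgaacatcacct

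ERBB3 A_33_P3280471: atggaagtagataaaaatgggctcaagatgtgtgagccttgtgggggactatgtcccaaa

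AREG A_33_P3419190: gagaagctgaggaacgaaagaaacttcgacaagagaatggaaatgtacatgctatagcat

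TGFA A_33_P3408203: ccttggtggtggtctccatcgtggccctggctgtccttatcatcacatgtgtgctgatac

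A spot's processed signal is its brightness after background subtraction, in units of the scanner. For comparisons it was put on a log2 scale against its own array's 75th percentile, which lay between 613.5 and 714.6 signal units. Well above background is the flag that the scanner software sets, and 55.8 to 63.0% of all probes carried it on each array. Of the 18 probes, 14 (of 9 genes) carried this flag on 3 or more of the 12 arrays and were tested with limma among 33711 probes. The probe of a gene with the highest mean signal is called its leading probe, and levels are set against each other only within a probe. A549 was on 1 slide and both PC14 lines were on the other, so that slide and line cannot be told apart in any comparison with A549. Each transfection had the same slide column in all lines, so that array position and transfection cannot be told apart either. Each value is an average over the cells of a culture, and fewer cells with a transcript and less transcript per cell cannot be told apart.

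The lines were checked against epithelial markers. All 6 (EPCAM, CDH1, KRT7, KRT8, KRT18 and KRT19) were well above background on all 4 A549 arrays. EPCAM was well above background on 3 and CDH1 on 2 of the 4 PC14 arrays, and both on 0 of the 4 PC14CDDP arrays, whereas the 4 keratins were on all 8. The log2 of the list's summed signals was 9.46 to 9.60 in A549, 7.32 to 7.87 in PC14 and 7.35 to 7.88 in PC14CDDP. The brightest keratins make up most of this sum, and KRT18 alone averaged 7.42 in PC14 and 7.60 in PC14CDDP. KRT19 was 4.37-fold lower in PC14CDDP than in PC14 (limma adjusted p = 0.000555), whereas KRT7, KRT8 and KRT18 were not called. Of 6 lung lineage and surfactant markers, 4 were tested, and 3 were higher (NAPSA 3.05-fold, SFTPD 1.65-fold and SFTPC 1.43-fold) and 1 lower in A549 than in PC14. The lower one, NKX2-1, was well above background on 0 A549 arrays and on all 8 arrays of the PC14 lines, through which it entered the test. Of 11 markers of immune, endothelial and stromal cells, COL1A2, DCN and PDGFRB were well above background on 0 arrays. PTPRC, CD14, CDH5, VWF and COL1A1 were well above background on all 12. The log2 of the 11 summed signals was 1.25 to 1.68 in A549, -0.50 to -0.12 in PC14 and -1.39 to -0.36 in PC14CDDP. CD14 was higher in A549 than in PC14 (log2 difference 4.35, adjusted p = 9.07e-07), COL1A1 was 5.66-fold above PC14 and 8.94-fold above PC14CDDP in A549, and PECAM1 was well above background on 4 PC14, 1 A549 and 0 PC14CDDP arrays. The part of these differences between lines in the results below was not tested.

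**Figure D1:**
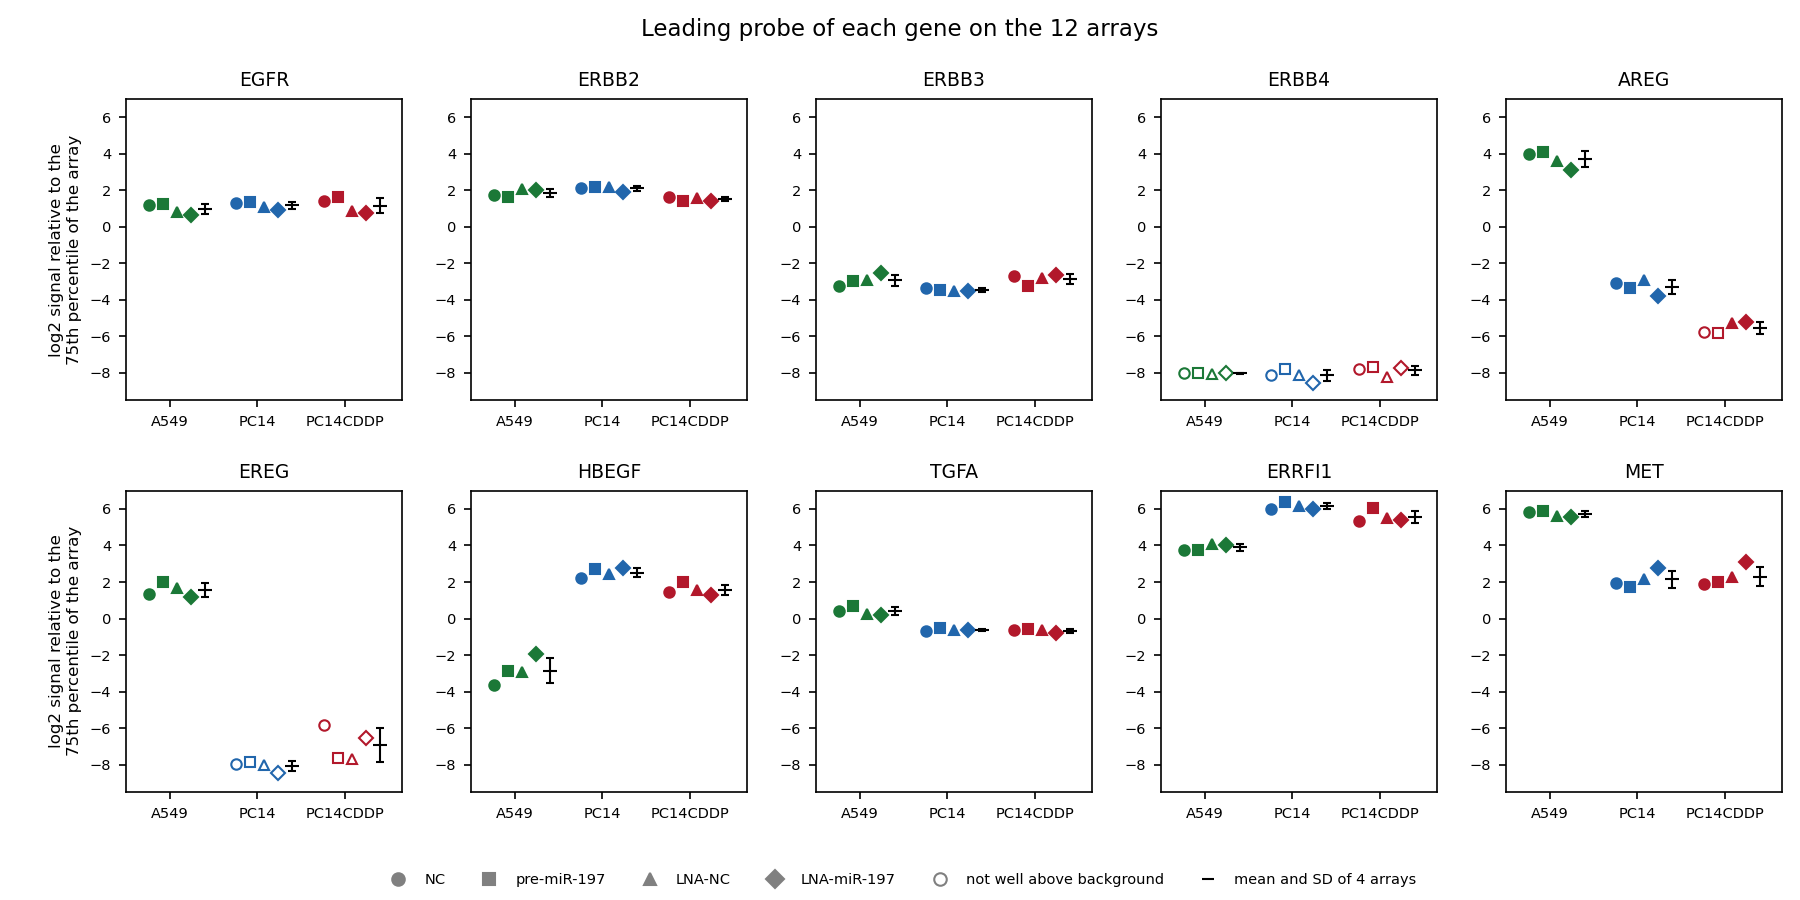
Level of the leading probe of each of the 10 genes on the 12 arrays, on a log2 scale against the array's 75th percentile (vertical axis) by line (horizontal axis). Symbols are the 4 transfections, open symbols are arrays on which the probe was not well above background, and the black bar is the mean and SD of 4 arrays; AREG, EREG and MET are highest in A549, HBEGF and ERRFI1 are lowest there, and ERBB4 is open on all 12 arrays.

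EGFR, the receptor of EGF, TGFA, AREG, EREG and HBEGF, did not pass the test between any lines by its leading probe, and both other probes placed PC14CDDP below PC14. The leading probe A_23_P215790 (chr7:55274841-55274900, of the transcript of the full-length receptor) gave processed signals of 1477 with NC, 1500 with pre-miR-197, 1222 with LNA-NC and 1108 with LNA-miR-197 in A549. The same probe gave 1600, 1768, 1481 and 1365 in PC14 and 1686, 2152, 1224 and 1030 in PC14CDDP, in the same order of transfections. The lines overlapped, and both LNA cultures were the lowest of each line. The mean log2 level was 0.99 ± 0.28 (SD, n = 4) in A549, 1.17 ± 0.20 in PC14 and 1.17 ± 0.42 in PC14CDDP. The log2 difference of PC14CDDP from PC14 was -0.01 (95% interval -0.23 to 0.22, adjusted p = 0.961), that of A549 from PC14 was -0.19 (-0.41 to 0.04, adjusted p = 0.124), and that of A549 from PC14CDDP was -0.18 (-0.40 to 0.05, adjusted p = 0.135).

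The other EGFR probes are assigned to shorter transcripts that encode a receptor without the kinase domain. Probe A_33_P3351944 (chr7:55224558-55224617, assigned to transcript variant 3) gave 213 to 323 signal units in A549, 279 to 356 in PC14 and 58.8 to 92.1 in PC14CDDP. The PC14CDDP arrays were all below the others. Against PC14 it was 3.93-fold lower in PC14CDDP (log2 difference -1.97, SE 0.16, adjusted p = 3.14e-05, lower in 4 of 4 pairs of cultures) and 3.69-fold higher in A549 than in PC14CDDP (log2 difference 1.88, adjusted p = 1.19e-05). With normexp background correction, which adds an offset of 50 units and so shrinks differences at low signal, the log2 differences were -1.34 and 1.21. Probe A_33_P3351955, whose coding sequence is printed above, is assigned to transcript variant 2 and lies in a part of the extracellular region that the full-length receptor also has. Against PC14 it was 1.74-fold lower in PC14CDDP (log2 difference -0.80, SE 0.08, adjusted p = 0.000118, 4 of 4 pairs), although the groups overlapped, with 29.9 to 65.7 against 64.9 to 106 signal units. This call was lost with the unmoderated test that the methods name (adjusted p = 0.0597), and the log2 difference was -0.34 with normexp. The probe was 1.37-fold lower in A549 than in PC14 (log2 difference -0.46, adjusted p = 0.0013, and -0.17 with normexp). This call was lost without the transfection as a block (adjusted p = 0.15) and with the methods' test (adjusted p = 0.196). Its difference of A549 from PC14CDDP was 0.34 (adjusted p = 0.00614). That call was also lost without the block (adjusted p = 0.276), with the methods' test (adjusted p = 0.379) and with quantile normalization (0.07, adjusted p = 0.514), and the value was 0.17 with normexp. The order of the lines thus depended on the probe, and which transcripts each probe reads in these cells was not tested.

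**Figure D2:**
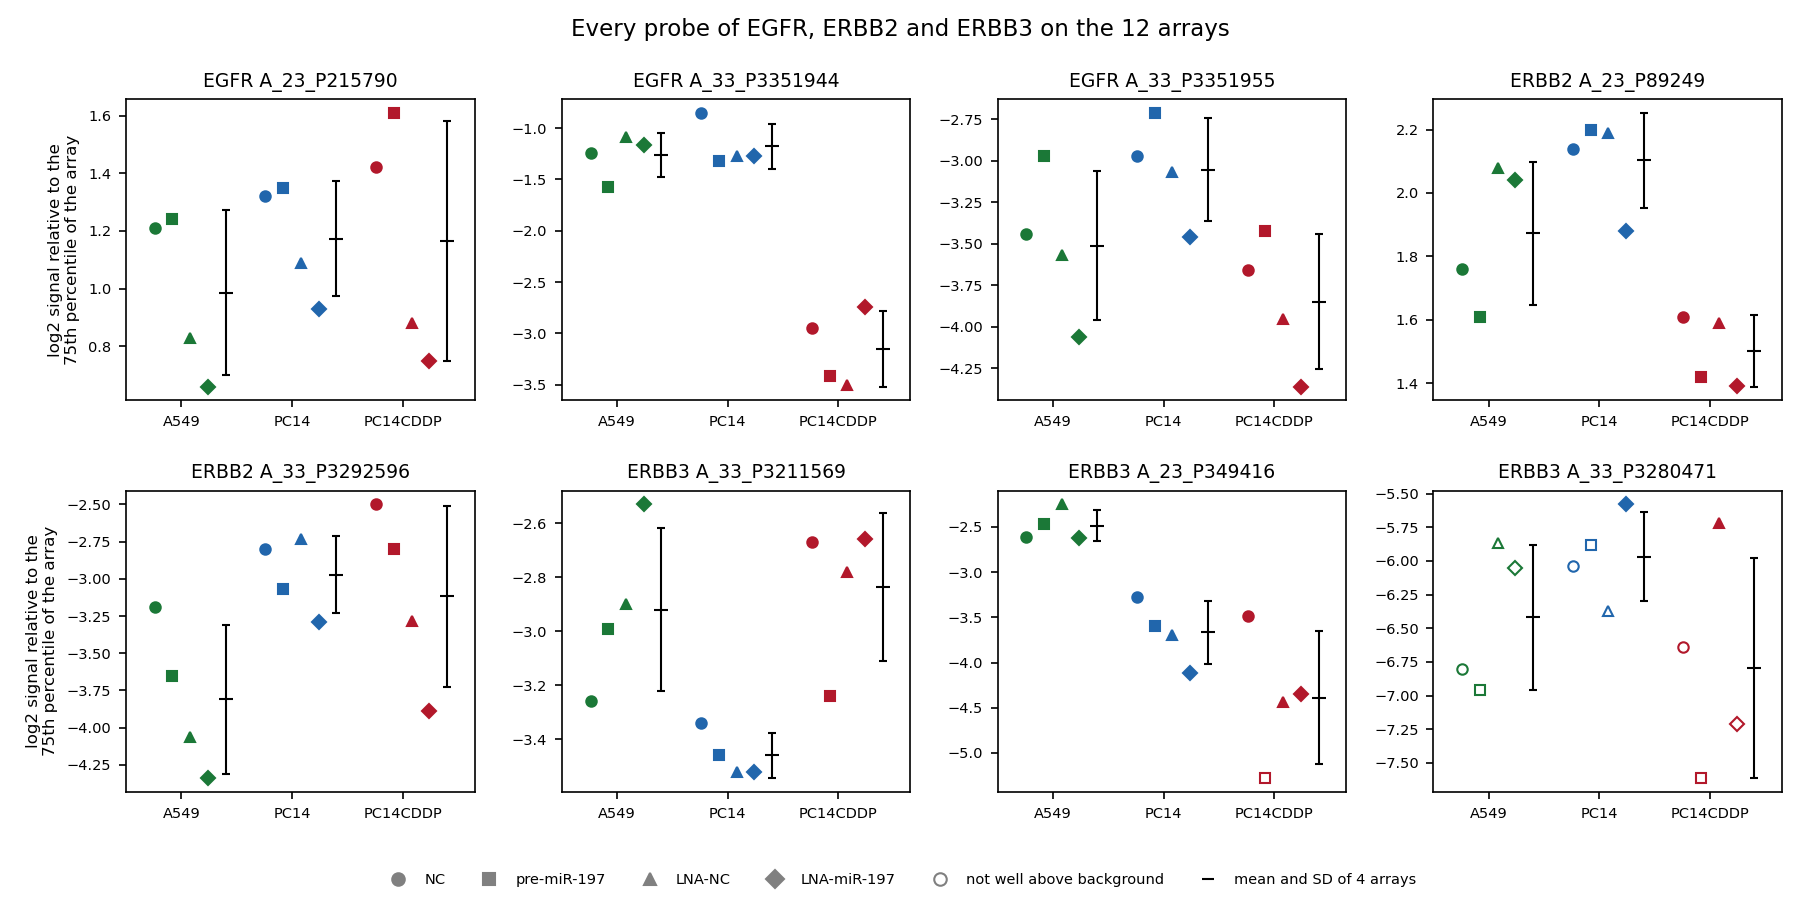
Every probe of EGFR, ERBB2 and ERBB3 on the 12 arrays, as log2 signal minus the array's log2 75th percentile (vertical axis, with its own range in each panel) by line (horizontal axis). Symbols and bars are as in the plot of leading probes. The leading EGFR probe overlaps between lines, whereas EGFR A_33_P3351944 is lowest on the 4 PC14CDDP arrays.

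ERBB2, the family member without a known ligand and the preferred partner of the others, was lower in PC14CDDP than in its parental line. Its leading probe A_23_P89249 (chr17:37884829-37884888) was spotted 10 times per array, and the SD between these spots was 0.033 to 0.056 on the log2 scale. The processed signals with NC, pre-miR-197, LNA-NC and LNA-miR-197 were 2836, 3195, 3187 and 2631 in PC14 and 1922, 1887, 2006 and 1613 in PC14CDDP. These ranges did not overlap, and the fitted difference was 1.52-fold (log2 difference -0.60, SE 0.12, adjusted p = 0.00429, lower in 4 of 4 pairs). A549 had 2170, 1937, 2913 and 2875, which spans both. A549 differed from PC14 by -0.23 (95% interval -0.52 to 0.06, adjusted p = 0.133). It was 1.29-fold higher than PC14CDDP (adjusted p = 0.0264), and this call was lost without the LNA-NC arrays (adjusted p = 0.12), without the LNA-miR-197 arrays (adjusted p = 0.078) or when only the arrays of the comparison were fitted (adjusted p = 0.0564). The second probe, A_33_P3292596, is matched to a GenBank sequence and lies near the gene's 5′ end (chr17:37851136-37851195). It gave 34.5 to 69.9 signal units in A549, 73.0 to 105 in PC14 and 41.4 to 111 in PC14CDDP. By this probe A549 was lower than both PC14 (1.79-fold, log2 difference -0.84, adjusted p = 0.00346) and PC14CDDP (1.62-fold, log2 difference -0.70, adjusted p = 0.00851). These differences were -0.36 and -0.32 with normexp. The call against PC14CDDP was lost without the transfection as a block (adjusted p = 0.0711) and with the methods' test (adjusted p = 0.182). PC14CDDP differed from PC14 by -0.14 (95% interval -0.56 to 0.27, adjusted p = 0.553). The 2 probes of ERBB2 therefore placed A549 and PC14CDDP in opposite order.

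ERBB3, the neuregulin receptor whose own kinase is weak, had a low signal in all lines, and its probes disagreed as well. The leading probe A_33_P3211569 (chr12:56479217-56479276, assigned to the short transcript variant s) gave 66.5 to 121 signal units in A549, 60.6 to 63.4 in PC14 and 74.6 to 98.7 in PC14CDDP. All 4 PC14 arrays were below all others. PC14CDDP was 1.54-fold higher than PC14 (log2 difference 0.62, SE 0.16, adjusted p = 0.013, and 0.40 with normexp), a call lost without the LNA-NC arrays (adjusted p = 0.074). A549 was 1.45-fold higher than PC14 (adjusted p = 0.0172), a call lost without the LNA-NC arrays (adjusted p = 0.0802), without the LNA-miR-197 arrays (adjusted p = 0.0958) and with quantile normalization (adjusted p = 0.0903). The probe A_23_P349416, at the 3′ end of the full-length transcript (chr12:56496160-56496219), gave 105 to 144 units in A549, 41.4 to 66.8 in PC14 and 18.1 to 56.3 in PC14CDDP, where it was well above background on 3 of 4 arrays. By this probe A549 was 2.26-fold above PC14 (log2 difference 1.18, adjusted p = 0.0066) and 3.73-fold above PC14CDDP (log2 difference 1.90, adjusted p = 0.000429), or 0.74 and 0.90 on the log2 scale with normexp. The difference of PC14CDDP from PC14 was -0.72 (95% interval -1.39 to -0.06, adjusted p = 0.0703), lower in 4 of 4 pairs. The third probe, in the coding sequence printed above, was well above background on 2 of 12 arrays and was not tested.

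ERBB4, the other neuregulin receptor, was not well above background with either of its 2 probes on any of the 12 arrays. Its leading probe gave 1.91 to 3.38 signal units and the second probe gave 1.71 to 3.85 over all arrays. No fold between lines or transfections is therefore given.

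MET, the receptor of hepatocyte growth factor, was far higher in A549 than in the PC14 lines. Its probe A_23_P359245 (chr7:116438290-116438349) gave 36028 with NC, 37866 with pre-miR-197, 34091 with LNA-NC and 32610 with LNA-miR-197 in A549. In the same order it gave 2492, 2286, 3077 and 4882 in PC14 and 2302, 2798, 3194 and 5195 in PC14CDDP. A549 did not overlap with the others, and both PC14 lines covered the same range, with LNA-miR-197 the highest array of each. A549 was 11.9-fold above PC14 (log2 difference 3.58, SE 0.24, adjusted p = 4.02e-06) and 10.7-fold above PC14CDDP (adjusted p = 4.33e-06). PC14CDDP differed from PC14 by 0.15 (95% interval -0.40 to 0.71, adjusted p = 0.638).

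The ligands AREG and EREG, which are neighbours on chromosome 4, were the members with the widest range between lines, and HBEGF ran the other way. AREG (amphiregulin) gave 10154 signal units with NC, 10771 with pre-miR-197, 8303 with LNA-NC and 6087 with LNA-miR-197 in A549 by its leading probe A_23_P259071 (chr4:75320518-75320577). In the same order it gave 77.3, 67.9, 91.3 and 51.6 in PC14 and 11.6, 12.3, 17.2 and 16.8 in PC14CDDP. The lines did not overlap, and in PC14CDDP only the LNA-NC and LNA-miR-197 arrays were well above background. A549 was 126-fold above PC14 (log2 difference 6.98, SE 0.26, adjusted p = 1.6e-07). Against PC14CDDP, where 2 of 4 arrays were well above background, A549 had a fitted log2 difference of 9.21 (SE 0.26, adjusted p = 3.31e-08). PC14CDDP had one of -2.23 against PC14 (SE 0.26, adjusted p = 0.000225). With normexp the differences were 6.11 for A549 against PC14, 6.77 for A549 against PC14CDDP and -0.65 for PC14CDDP against PC14, all called.

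The coding AREG probe printed above gave 2590 to 4395 signal units in A549, 21.2 to 32.0 in PC14 and 4.17 to 9.99 in PC14CDDP, where it was well above background on 0 of 4 arrays. The lowest signal that counted as well above background was taken as the floor of each PC14CDDP array. Against this floor A549 was at least 306-fold and PC14 at least 2.30-fold higher than PC14CDDP. The adjusted p-values of limma, 1.17e-07 and 0.00216, belong to the fit on the measured signals and not to these bounds. The call between the PC14 lines was lost with normexp background correction (adjusted p = 0.135), where the log2 difference was -0.30 in place of -1.79. A549 was 133-fold above PC14 by this probe (log2 difference 7.05, and 5.48 with normexp). With normexp A549 was 5.77 above PC14CDDP on the log2 scale, against a fitted 8.85. hg19 also carries a nearly identical copy of the gene, named AREGB, and which copy the probes read was not tested.

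EREG (epiregulin) was well above background in A549 alone. Its probe A_23_P41344 (chr4:75254009-75254068) gave 1625 with NC, 2533 with pre-miR-197, 2212 with LNA-NC and 1598 with LNA-miR-197 in A549, 2.06 to 3.03 in PC14 and 3.22 to 11.2 in PC14CDDP. It was well above background on 4 of 4 A549 arrays and on 0 of the 8 others, so that it entered the test through A549. Against the floor of the arrays, A549 was at least 224-fold above PC14 and at least 169-fold above PC14CDDP. No test is read from this, since a probe that enters through 1 line has to differ from the others. With normexp, whose offset shrinks the range, the log2 differences were 4.92 and 4.79, below both bounds. Between the PC14 lines limma gave an adjusted p of 0.046, but the probe was not well above background in either, and no fold or order is read from it.

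Because AREG and EREG were both high in A549, their upstream sequences were read from RefSeq (GRCh38.p14, plus strand, 250 bases before the start). Capitals mark matches on either strand to TGACGTCA (the cyclic AMP response element), to TATAAA (the TATA box) and to TGANTCA (the AP-1 motif), none of which overlap here. They lie at chr4:74444886-74445135 for AREG and at chr4:74364895-74365144 for EREG.

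AREG upstream: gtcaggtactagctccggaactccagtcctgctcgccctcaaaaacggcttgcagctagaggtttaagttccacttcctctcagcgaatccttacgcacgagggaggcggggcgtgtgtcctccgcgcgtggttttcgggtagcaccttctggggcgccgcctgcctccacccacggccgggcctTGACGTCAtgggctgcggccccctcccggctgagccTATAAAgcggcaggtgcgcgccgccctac

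EREG upstream: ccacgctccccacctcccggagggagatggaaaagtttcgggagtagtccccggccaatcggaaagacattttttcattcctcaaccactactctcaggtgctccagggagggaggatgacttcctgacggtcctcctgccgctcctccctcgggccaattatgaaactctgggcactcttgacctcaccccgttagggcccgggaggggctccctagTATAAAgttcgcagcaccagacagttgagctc

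The response element was found 65 bases upstream in AREG, and 1.65% of 35116 promoter windows of the same length hold it. TATAAA was found 29 bases upstream in AREG and 32 bases upstream in EREG, against 10.7% of all windows. Among the 9 members with an entry (ERBB3 has none in the table), only AREG held the response element, only AREG and EREG held TATAAA, and only ERBB2 held the AP-1 motif, which 6.57% of all windows hold. The GC box GGGCGG was in 7 of the 9 and in 42.6% of all windows. These are matches of letters in a window, and factor binding was not measured.

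HBEGF (heparin-binding EGF-like growth factor) was low in A549 and high in the PC14 lines. Its probe A_24_P140608 (chr5:139713052-139713111) gave 51.9 with NC, 85.0 with pre-miR-197, 88.7 with LNA-NC and 180 with LNA-miR-197 in A549. In the same order it gave 2976, 4506, 3724 and 4803 in PC14 and 1724, 2780, 1944 and 1483 in PC14CDDP. No 2 lines overlapped. A549 was 41.5-fold below PC14 (log2 difference -5.38, SE 0.26, adjusted p = 6.72e-07) and 21.4-fold below PC14CDDP (log2 difference -4.42, adjusted p = 1.64e-06), or -4.71 and -3.75 with normexp. PC14CDDP was 1.94-fold below PC14 (log2 difference -0.96, SE 0.26, adjusted p = 0.0166), a call lost without the LNA-NC arrays (adjusted p = 0.0679).

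TGFA (transforming growth factor alpha) was lower in both PC14 lines than in A549. Its leading probe, in the coding sequence printed above, gave 857 with NC, 1040 with pre-miR-197, 828 with LNA-NC and 803 with LNA-miR-197 in A549. It gave 403 to 479 in PC14 and 350 to 466 in PC14CDDP, and A549 overlapped with neither. A549 was 2.03-fold above PC14 (log2 difference 1.02, SE 0.09, adjusted p = 2.23e-05) and 2.10-fold above PC14CDDP (adjusted p = 1.43e-05), while PC14CDDP differed from PC14 by -0.05 (95% interval -0.26 to 0.16, adjusted p = 0.703). The second probe, A_23_P377291 (chr2:70675319-70675378), was well above background on 1 of 12 arrays and was not tested.

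ERRFI1 (also known as MIG6), which binds the EGFR kinase and blocks it, was highest in PC14. Its probe A_23_P46470 (chr1:8072208-8072267) gave 8615 with NC, 8428 with pre-miR-197, 11786 with LNA-NC and 11180 with LNA-miR-197 in A549. In the same order it gave 41711, 57496, 50288 and 46024 in PC14 and 25713, 46403, 29834 and 25642 in PC14CDDP. A549 was below all other arrays, and the PC14 lines overlapped through the pre-miR-197 array of PC14CDDP. A549 was 4.75-fold below PC14 (adjusted p = 3.98e-06) and 3.18-fold below PC14CDDP (adjusted p = 1.9e-05). PC14CDDP was 1.49-fold below PC14 (log2 difference -0.58, SE 0.15, adjusted p = 0.0134), a call lost without the NC arrays (adjusted p = 0.0774), without the LNA-NC arrays (adjusted p = 0.0619) or with the methods' test (adjusted p = 0.0576).

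Over all member probes, 9 of the 14 tested were called between PC14CDDP and PC14, 2 higher and 7 lower, where 48.7% of all probes tested were called (25.1% higher and 23.5% lower). One of the 2 higher calls was EREG, not well above background in either line, and the other was the leading ERBB3 probe. Without the LNA-NC arrays 5 calls were made, all lower; those lost were EREG, ERBB3, ERRFI1 and HBEGF. The median log2 difference of the 14 probes was -0.59, against 0.04 over all probes tested. Between A549 and PC14, 11 of the 14 were called, 7 higher and 4 lower, where 67.4% of all probes were called (34.4% higher and 33.1% lower), and the median was 0.23 against 0.05. Between A549 and PC14CDDP, 12 of the 14 were called, 9 higher and 3 lower, where 70.1% of all probes were called (35.5% higher and 34.7% lower), and the median was 0.72 against 0.03. EREG, which entered through A549 alone, is in these counts. Without it 8, 10 and 11 of 13 probes were called in the 3 comparisons, with medians of -0.60, -0.09 and 0.37, so that the median of A549 against PC14 turned its sign. Probes of 1 gene share a transcript, and the 3 comparisons share arrays.

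**Figure D3:**
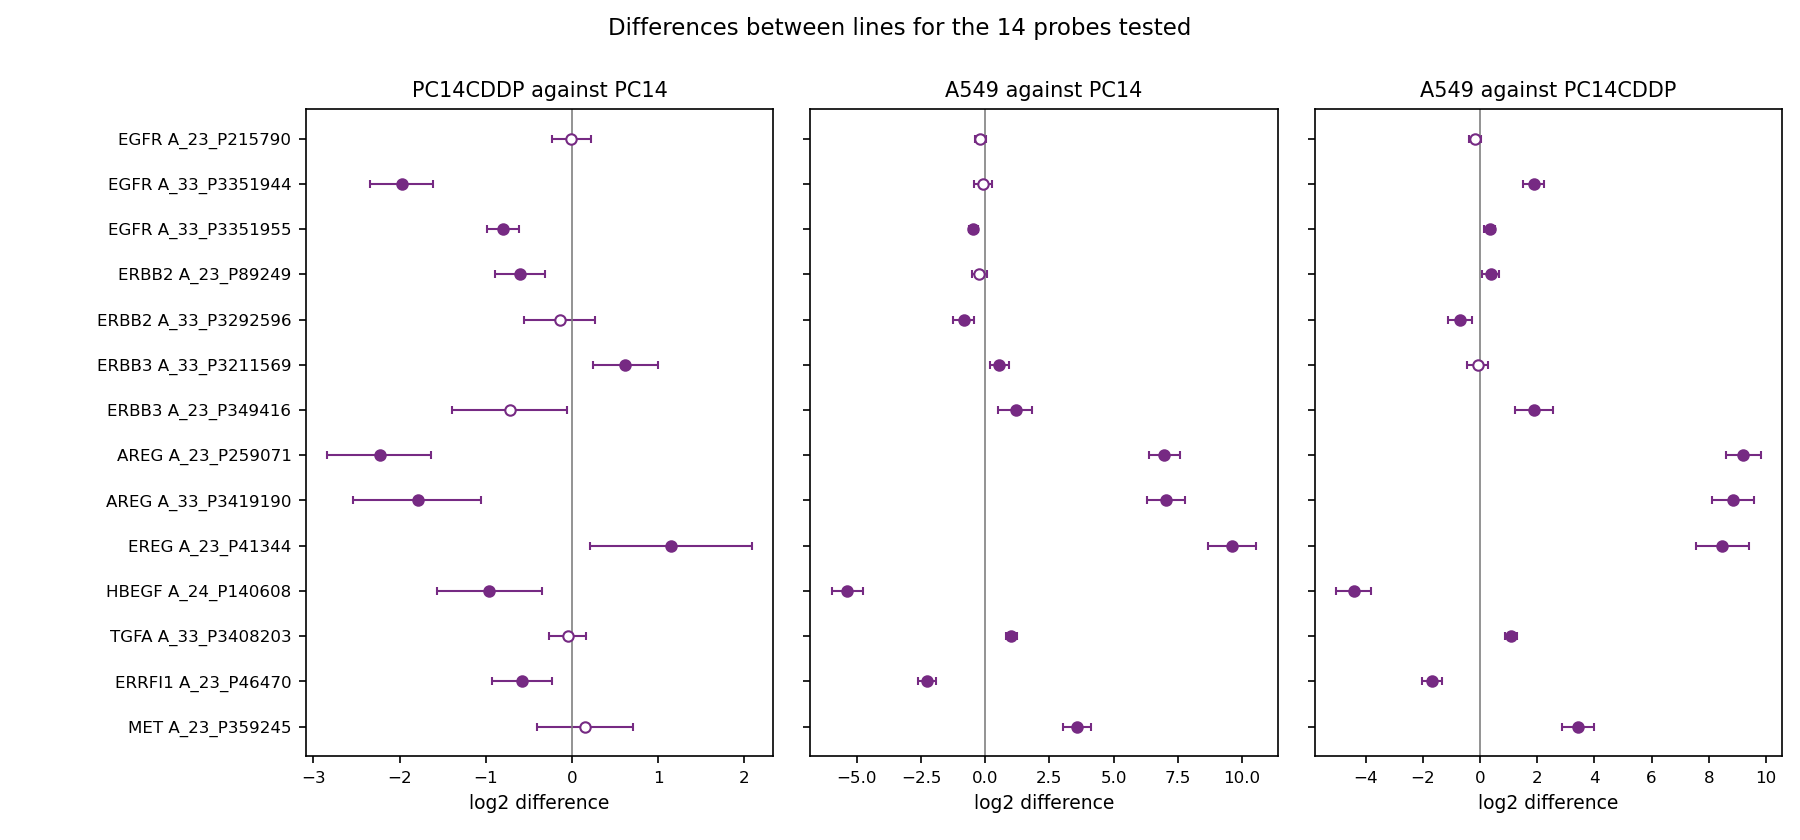
Log2 difference between lines (horizontal axis, with its own range in each panel) for the 14 probes tested, the first-named line minus the second. Bars are 95% intervals of limma, filled points are called at an adjusted p under 0.05 and open points are not. The values for EREG, and for AREG A_33_P3419190 against PC14CDDP, include lines in which the probe was not well above background; AREG, EREG and MET lie to the right and HBEGF and ERRFI1 to the left in both comparisons of A549.

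The comparison of pre-miR-197 with NC asks what an added miR-197 precursor does to these genes. None of the 14 probes was called (0 by limma, and 2 at an unadjusted p under 0.05), where 0.0801% of all probes tested were called (0.0297% higher and 0.0504% lower). The 2 were EGFR probes of opposite direction. EGFR A_33_P3351955 had log2 ratios of 0.47 for A549, 0.26 for PC14 and 0.25 for PC14CDDP (fitted difference 0.32, SE 0.10, adjusted p = 0.176). EGFR A_33_P3351944 had ratios of -0.33, -0.47 and -0.47 in the same lines (fitted difference -0.42, SE 0.18, adjusted p = 0.312). The leading EGFR probe differed by 0.08 (95% interval -0.17 to 0.34, adjusted p = 0.765). HBEGF had ratios of 0.72, 0.49 and 0.53, a fitted difference of 0.58 (95% interval -0.12 to 1.28, adjusted p = 0.399). ERRFI1 had ratios of -0.02, 0.35 and 0.69, a fitted difference of 0.34 (95% interval -0.06 to 0.74, adjusted p = 0.392). ERBB3 A_23_P349416 had ratios of 0.14, -0.33 and -1.80, a fitted difference of -0.66 (95% interval -1.43 to 0.11, adjusted p = 0.384). Its pre-miR-197 array of PC14CDDP was not well above background. MET had ratios of 0.08, -0.24 and 0.12. The median difference of the 14 probes was -0.10, against 0.03 over all probes tested.

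The comparison of LNA-miR-197 with LNA-NC asks what blocking the cells' own miR-197 does. One of the 14 probes was called, lower, where 7.95% of all probes tested were called (3.92% higher and 4.03% lower). It was EGFR A_33_P3351955, with ratios of -0.48 for A549, -0.39 for PC14 and -0.40 for PC14CDDP (fitted difference -0.43, SE 0.10, adjusted p = 0.0381). This call was lost when any of the 3 lines was left out (adjusted p = 0.123, 0.248 and 0.255 without A549, PC14 and PC14CDDP). In each of these fits 0 of all 33711 probes were called, so that this loss is not particular to EGFR. Among other settings, the call was also lost with quantile normalization (adjusted p = 0.0624) and with normexp (-0.22, adjusted p = 0.0894). The leading EGFR probe had ratios of -0.17, -0.16 and -0.13 (fitted difference -0.15, 95% interval -0.41 to 0.11, adjusted p = 0.43). The lone EGFR call thus concerned a probe of low signal, 29.9 to 106 units over all arrays.

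Among the other receptors, MET had LNA-miR-197 ratios of -0.09 in A549, 0.63 in PC14 and 0.82 in the PC14CDDP line (fitted difference 0.45, 95% interval -0.19 to 1.10, adjusted p = 0.333). The second ERBB2 probe had ratios of -0.28, -0.57 and -0.61 (adjusted p = 0.178), and its leading probe had -0.04, -0.31 and -0.19 (adjusted p = 0.451). Among the ligands, the leading AREG probe had ratios of -0.47 for A549, -0.86 for PC14 and 0.09 for PC14CDDP (adjusted p = 0.418), and the coding AREG probe had -0.40 and -0.63 in A549 and PC14. HBEGF had 1.00, 0.33 and -0.27 (adjusted p = 0.496). TGFA and ERRFI1 stayed within 0.17 of their control in every line, and their intervals were -0.33 to 0.16 and -0.52 to 0.28. The median difference of the 14 probes was -0.14, against -0.02 over all probes tested.

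The controls were compared with each other as a background. Between LNA-NC and NC, 0 of the 14 probes were called (2 at an unadjusted p under 0.05), where 0.454% of all probes were called (0.326% higher and 0.128% lower). The leading EGFR probe had ratios of -0.38 for A549, -0.23 for PC14 and -0.55 for PC14CDDP, and the LNA-NC and NC arrays did not overlap (fitted difference -0.38, 95% interval -0.64 to -0.13, adjusted p = 0.197). This difference between controls was larger than those of the leading EGFR probe with pre-miR-197 (0.08) and with LNA-miR-197 (-0.15), a contrast that was not itself tested. When NC stood in for LNA-NC, 3 probes were called lower after LNA-miR-197, namely the leading EGFR probe (log2 difference -0.53, adjusted p = 0.0221), EGFR A_33_P3351955 (-0.60, adjusted p = 0.0117) and ERBB2 A_33_P3292596 (-1.01, adjusted p = 0.0214).

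**Figure D4:**
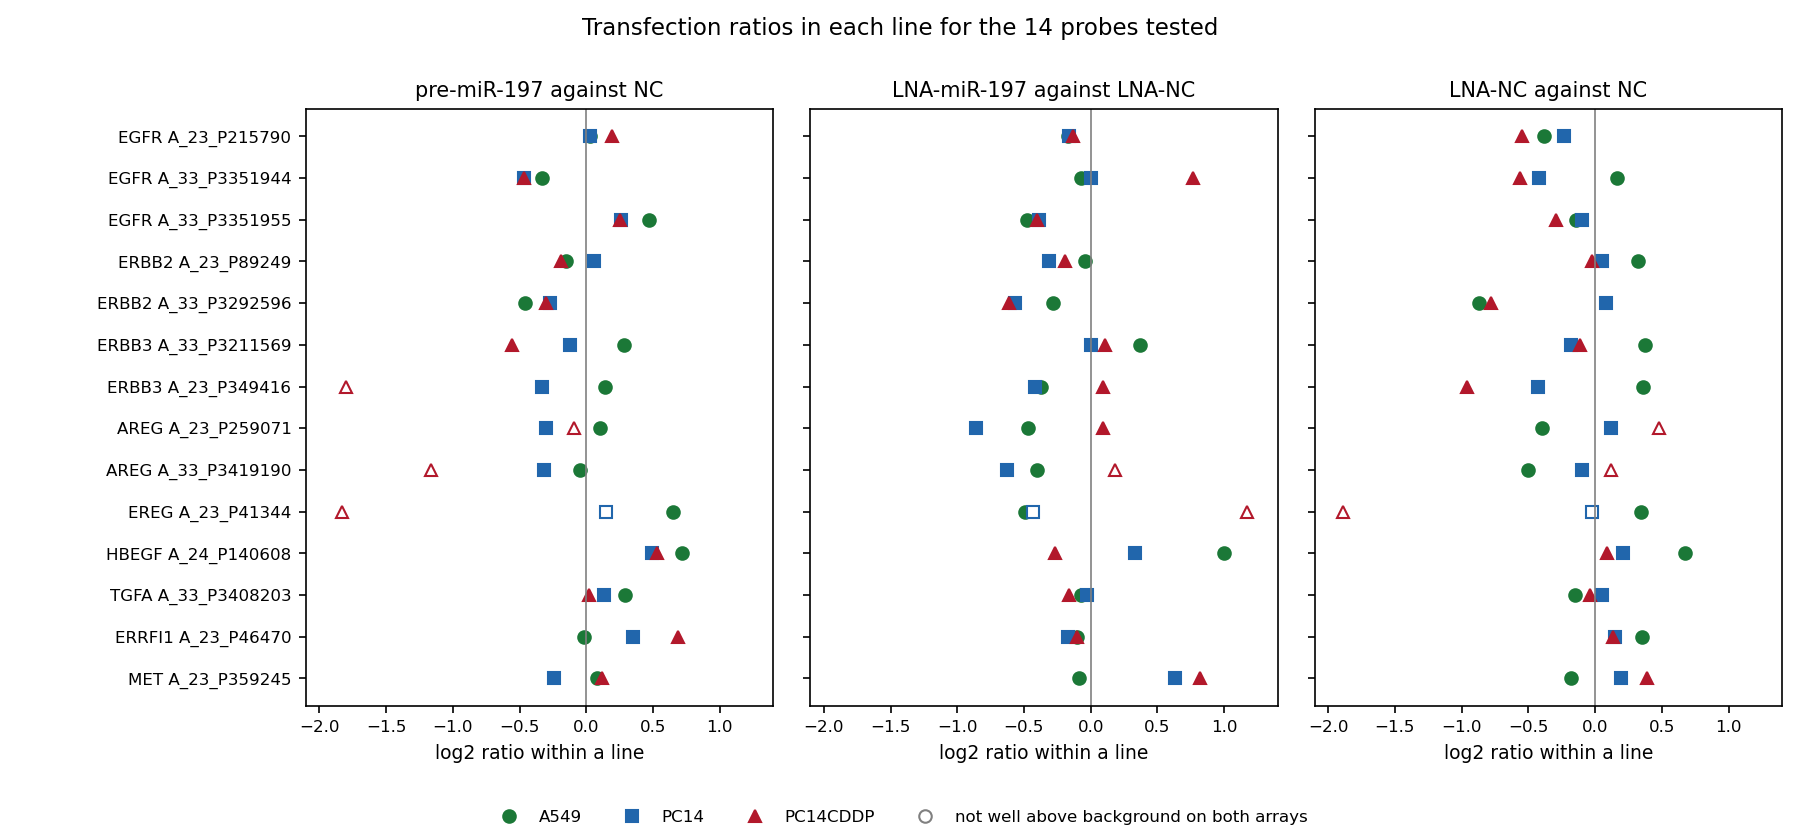
Log2 ratio of a treated array to the control array of the same line (horizontal axis) for the 14 probes tested in A549, PC14 and PC14CDDP. Open symbols are ratios in which at least 1 of the 2 arrays was not well above background; EGFR A_33_P3351955 lies to the right of 0 after pre-miR-197 and to the left after LNA-miR-197 in all 3 lines, and the leading EGFR probe lies to the left of 0 in all 3 lines for LNA-NC against NC.

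Other ligands and the proteins that release or restrain them were read next. Of 15 such genes, 9 were tested by their leading probe, and EGF, EPGN, NRG3, HGF, HPN and SPINT1 were not. Between A549 and PC14, 6 were higher and 1 lower, where 67.4% of all probes were called (median log2 difference 0.66, against 0.05 over all probes). NRG1, a ligand of ERBB3 and ERBB4, was 118-fold higher in A549 (log2 difference 6.89, SE 0.29, adjusted p = 2.75e-07), and SPINT2, an inhibitor of the proteases that activate hepatocyte growth factor, was 114-fold higher (log2 difference 6.83, SE 0.28, adjusted p = 2.37e-07). BTC (betacellulin), another EGFR ligand, was well above background on all 4 A549 arrays and on 0 of the 8 others. It entered the test through A549, so that no test is read from its calls. They are in the counts and medians of A549 against PC14 and against PC14CDDP. Between A549 and PC14CDDP 7 were higher and 1 lower, where 70.1% of all probes were called (median 0.90), with SPINT2 at 10.15 and NRG1 at 7.31 on the log2 scale. Between PC14CDDP and PC14 0 were higher and 2 lower, where 48.7% of all probes were called (median -0.17). These were SPINT2 (9.95-fold lower, adjusted p = 3.85e-05) and the ligand NRG2 (4.58-fold lower, adjusted p = 8.63e-06). After LNA-miR-197, where 7.95% of all probes were called, NRG2 was lower (-0.70, adjusted p = 0.0387) and ADAM10, a protease that releases EGFR ligands, was higher (0.62, adjusted p = 0.045). Both calls were lost when any line was left out, where 0 of all 33711 probes were called.

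Of 18 adaptors and brakes that act at the receptors, all were tested. Between PC14CDDP and PC14, 9 were higher and 6 lower, where 25.1% of all probes were higher and 23.5% lower (median 0.07). The 9 higher genes differed by 0.94 or less on the log2 scale, and the widest differences were those of CBLC, LRIG1 and GAB2, all lower. CBLC, a ubiquitin ligase of activated receptors, was well above background on 4 PC14 arrays, 1 PC14CDDP array and 0 A549 arrays. It entered the test through PC14, so that no test is read from its lower calls against PC14, which are in the counts. LRIG1, which lowers the amount of EGFR family receptors, was 13.2-fold lower in PC14CDDP (log2 difference -3.72, SE 0.12, adjusted p = 2.59e-07), and the adaptor GAB2 was 2.19-fold lower (adjusted p = 0.00144). Between A549 and PC14, 3 were higher and 7 lower, where 34.4% of all probes were higher and 33.1% lower (median -0.10), with LRIG2 5.17-fold and the ubiquitin ligase CBL 2.61-fold lower in A549. Between A549 and PC14CDDP, 6 were higher and 9 lower, where 35.5% of all probes were higher and 34.7% lower (median -0.39), and LRIG1 was 7.90-fold higher in A549. After LNA-miR-197 2 were higher and 1 lower, where 3.92% of all probes were higher and 4.03% lower (median 0.00), namely GAB1 (1.18, adjusted p = 0.0293), LRIG3 (0.45, adjusted p = 0.0399) and SOS1 (-0.61, adjusted p = 0.0333).

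Genes that ERK signalling is known to induce, many of which feed back on it, were mostly lower in A549. Of 16, all tested, 2 were higher and 12 lower in A549 than in PC14, where 34.4% of all probes were higher and 33.1% lower (median -0.90, against 0.05 over all probes). The transcription factor EGR1 was 17.3-fold lower (log2 difference -4.11, SE 0.57, adjusted p = 0.000286), and the inhibitors SPRY4 and SPRED2 were 11.6-fold and 5.63-fold lower. The 2 higher genes were the inhibitor SPRY2 (1.8-fold, limma adjusted p = 0.00179) and the phosphatase DUSP6 (1.78-fold, adjusted p = 0.00489). Against PC14CDDP 2 were higher and 10 lower, where 35.5% of all probes were higher and 34.7% lower (median -0.77), with EGR1 16.1-fold lower. Between PC14CDDP and PC14 4 were higher and 6 lower, where 25.1% and 23.5% of all probes were (median -0.11). Of the ERK phosphatases, DUSP4 was 24.0-fold lower (adjusted p = 1.5e-06) and DUSP6 6.20-fold higher (adjusted p = 1.93e-05) there. DUSP5 was not called (mean log2 level 1.72 in PC14 and 1.63 in PC14CDDP). The early response gene IER3 was 5.01-fold lower. None of the 16 was called after either miR-197 transfection.

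Of 18 other receptor tyrosine kinases, 14 were tested. Between PC14CDDP and PC14 0 were higher and 9 lower, where 25.1% of all probes were higher and 23.5% lower (median -0.69, against 0.04 over all probes), among them FGFR3 (log2 difference -1.80, SE 0.19, adjusted p = 0.000121) and RET (-1.69, adjusted p = 4.18e-05). Between A549 and PC14 6 were higher and 7 lower, where 34.4% of all probes were higher and 33.1% lower (median -0.43, against 0.05). The widest differences were those of MST1R, the receptor most like MET (4.85, SE 0.29, adjusted p = 1.86e-06), FGFR1 (2.50, adjusted p = 3.13e-07) and MERTK (-1.42, adjusted p = 4.03e-06). Between A549 and PC14CDDP 8 were higher and 3 lower, where 35.5% of all probes were higher and 34.7% lower (median 1.2). In these 4 lists no gene was called between pre-miR-197 and NC or between LNA-NC and NC (0 by limma).

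Likeness over the 12 arrays was described for the 7 members whose leading probe was well above background on all of them, among 24603 such probes. The 12 arrays share 3 lines and 2 slides, so that a difference between lines can dominate a correlation. The leading EGFR probe differed little between lines (means of 0.99, 1.17 and 1.17), and both LNA arrays were the lowest of each line. HBEGF was closest to ZNF738 (Pearson r = 0.995) and HENMT1 (0.994), MET to APBB1IP (0.994) and to the transcript XLOC_009233 (0.991), and TGFA to the transcript XLOC_l2_001760 (0.994) and CLDN7 (0.993). ERRFI1 was closest to HIST1H2BL (0.99) and HSCB (0.989). For the receptors that changed less between lines the closest were RASGRP2 (0.970) and STOM (0.949) for ERBB2, HIST1H2AM (0.960) and STK3 (0.937) for EGFR, and TNNC1 (0.935) and NTPCR (0.930) for ERBB3.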

How the data were processed

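Total RNA of 12 transfected cultures was hybridised to 1-colour Agilent arrays. The authors scanned them with Agilent Feature Extraction 10.7.3.1 (version per the labels and the file headers) and deposited each spot's intensity as mean signal, local background and a processed signal that is background-subtracted and not scaled between arrays. The deposited table of intensity values equals the processed signal on all 62976 spots of each array. The paper names Student's t-test in general and, in the text used here, no array normalization.

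Control and outlier spots were left out, spots of a probe were averaged, and log2 of the processed signal minus log2 of the array's 75th percentile was taken. Probes missing on any array (106 of 50599) were left out. limma 3.58.1 (R 4.3.3) was fitted to 33711 probes well above background on at least 3 of 12 arrays, with transfection and line as terms, and adjusted by Benjamini-Hochberg. An adjusted p under 0.05 was called. The pairing by line comes from the labels, and within a line the arrays' deviations from the means of their transfections had correlations of 0.845 to 0.947. Where a probe was below background on all arrays of a group, only a bound is given. No spot was saturated (0), and the number of arrays limits the precision. Alternatives were quantile normalization, normexp correction, other filters, 1 probe per gene, other priors and blocks, the methods' t-test and leaving out lines or transfections. The limma script was tested on simulated data.

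The members, the gene lists and the rules for naming genes (all member probes, up to 3 called genes per list and comparison, and 2 like genes per member) were chosen with earlier results of these data known. Of the 18 member probes, 17 matched RefSeq by accession. Sequences are RefSeq's (GRCh38.p14) or the array files' (hg19). 0 columns belonged to other samples. Other values and the plots were made in Python 3.11.15 (matplotlib 3.10.9, pandas 2.3.3, numpy 2.4.6).
The sequence of 1 member probe is not reported here.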

Additional observations from a re-analysis of the deposited data

Results flagged for a closer look

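Each line's 4 arrays were searched for an array far from the other 3, in 37 groups of well measured member probes, and 1 was found, where chance gives about 1 in 20. EGFR A_33_P3351944 in PC14 was highest on the NC array, at -0.85 on the log2 scale, with the other 3 arrays between -1.32 and -1.27.

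The ratios of each probe were also read for lines that moved in opposite directions by at least 1.2-fold, in 39 pairs of probe and comparison, and 3 were found, none of which was tested. The leading ERBB3 probe was higher after pre-miR-197 in A549 (0.28) and lower in PC14CDDP (-0.56), a gap of 0.84 on the log2 scale. ERBB3 A_23_P349416 was higher in LNA-NC than in NC in A549 (0.36) and lower in PC14CDDP (-0.96), a gap of 1.32. HBEGF was higher after LNA-miR-197 in A549 (1.00) and lower in PC14CDDP (-0.27), a gap of 1.27. Each rests on 1 array per line and transfection.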

How the results depend on the processing

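For LNA-miR-197 against LNA-NC, the 1 member probe called became 0 with quantile normalization, normexp background correction, no filter on dim probes, 1 probe per gene, a trended and robust prior, only the arrays of the comparison, the methods' t-test (0 also before adjustment), no replicate block and the slide as a block. Leaving out each line gave 0 to 0. With NC in place of LNA-NC it became 3. For PC14CDDP against PC14, the 9 probes called became 5 without the LNA-NC arrays (range 5 to 9 when each transfection was left out), and the methods' t-test called 6, or 8 before adjustment. For A549 against PC14, the 11 called became 7 when probes had to be well above background on all 12 arrays and 7 with 1 probe per gene, both of which test fewer probes (range 10 to 11 with a transfection left out). For A549 against PC14CDDP, the 12 called became 7 with 1 probe per gene (range 11 to 12). Without the replicate block the counts of calls were 0 for every transfection comparison, 9 for PC14CDDP against PC14, 10 for A549 against PC14 and 10 for A549 against PC14CDDP. Counts of 0 for pre-miR-197 against NC and for LNA-NC against NC stayed 0 when each line was left out and without the block. In these settings 0 of all 33711 probes were called for pre-miR-197 against NC. For LNA-NC against NC it was 0 to 3 with a line left out and 6 without the block. With so few calls on the whole array, these settings cannot show whether the counts of 0 are stable. No called difference changed sign under any alternative run. Where no value shows a cause, the cause was not tested. Folds against EREG in the PC14 lines and against the coding AREG probe in PC14CDDP are only bounds. ERBB4 has neither a fold nor a bound, and normexp, whose offset is 50 units, lowered the differences of dim probes.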
